A study of Mus musculus with 12 samples.

Results

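The 10 genes described here encode the proteins that fill neutrophil granules or that neutrophils and monocytes release as alarmins. They are S100a8, S100a9, Ngp, Ltf, Camp, Lcn2, Mpo, Elane, Prtn3 and Retnlg. Each was taken by name, through the probe set whose annotation gives that gene symbol alone, and no measured value enters that rule. The list of names itself was chosen with earlier results of these data known. All 10 were found, each on 1 probe set, among 22180 genes tested.

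The samples were bone marrow-derived dendritic cells, which are grown from mouse bone marrow with the growth factor GM-CSF (here 20 ng/ml) and were harvested as semi-adherent cells on day 7. Such cultures are not sorted and can hold granulocytes and macrophages beside dendritic cells. The design crossed a genotype with a stimulus. Donor mice on a C57BL/6 background, 8 weeks old and all labelled male, were either Arc/Arg3.1 –/– (knockout) or Arc/Arg3.1 +/+ (wildtype); Arc is best known as an activity-regulated gene of neurons. Cells received either medium (untreated) or lipopolysaccharide (LPS), a bacterial cell wall component sensed by TLR4, at 100 ng/ml for 30 min. After washing, all cells rested for another 1 h in medium without LPS, and RNA was then extracted. Each of the 4 groups has 3 arrays, 12 in all, numbered as replicates 1 to 3. They are labelled biological replicates, with no word on whether each is a separate animal; p-values thus measure only the spread between these samples.

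Several arrays stood apart before any comparison. The log2 signal of Arc was between 9.21 and 9.62 on the 6 arrays of wildtype cells and between 7.68 and 8.05 on those of knockout cells, so genotype labels and Arc signal went together. The 3 untreated wildtype arrays resembled one another more closely than did arrays of any other group: the SD of the gene-by-gene difference was 0.105 to 0.108 for their pairs and 0.193 to 0.438 for the other 9 pairs, over the 6440 genes whose mean log2 signal exceeded 8. Their mean was therefore counted as 1 sample, leaving 10 samples. Small RNA genes (86) had a median signal of 10.44 to 11.05 on 8 arrays; on the remaining 4, LPS replicates 2 and 3 in each genotype, it was 9.83 to 9.87. Xist, the RNA of the inactive X chromosome, was 5.63 to 5.76 on 3 arrays (knockout untreated 2, knockout LPS 2 and wildtype LPS 1) and 11.22 to 11.92 on the other 9, although every label says male; Y-linked genes showed the opposite order. The 12 genes chosen to check the LPS stimulus, among them Il23a, Nfkbiz and Nr4a1, all rose in the average over both genotypes, with a median log2 difference of 4.1. Conventional dendritic cell markers averaged 10.46 to 10.64 on every array (13 genes measured), and none of the 13 stayed under a log2 signal of 6 on all arrays of a group.

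Neutrophil granules are made in succession as the cell matures. Primary (azurophil) granules form first, in promyelocytes, and carry myeloperoxidase and serine proteases such as neutrophil elastase and proteinase 3. Secondary (specific) granules form next and carry lactoferrin, cathelicidin, neutrophilic granule protein and lipocalin 2, while S100a8 and S100a9 pair as calprotectin, an abundant cytosolic protein that binds calcium, zinc and manganese and signals through TLR4 and RAGE when released. Transcription factors of the C/EBP family, C/EBP epsilon above all, drive the secondary granule genes, and PU.1 drives much of the early myeloid programme.

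Promoters are printed so that the motifs counted next can be seen in place. They are those of the 5 genes that passed the test for lower signal after LPS, averaged over both genotypes, and of Elane, which did not pass it. Each is the 250 bases before the transcription start, on the gene's own strand and written 5′ to 3′, from RefSeq on GRCm38.p6. Capitals mark matches, on either strand, to a C/EBP motif (TTGCNNAA), a PU.1 motif (GAGGAAG) or a TATA box (TATAAA).
S100a8: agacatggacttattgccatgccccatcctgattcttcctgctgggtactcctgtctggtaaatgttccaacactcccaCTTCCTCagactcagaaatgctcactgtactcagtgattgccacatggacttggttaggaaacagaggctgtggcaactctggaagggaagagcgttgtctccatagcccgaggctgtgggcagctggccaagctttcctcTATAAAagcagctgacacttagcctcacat
S100a9: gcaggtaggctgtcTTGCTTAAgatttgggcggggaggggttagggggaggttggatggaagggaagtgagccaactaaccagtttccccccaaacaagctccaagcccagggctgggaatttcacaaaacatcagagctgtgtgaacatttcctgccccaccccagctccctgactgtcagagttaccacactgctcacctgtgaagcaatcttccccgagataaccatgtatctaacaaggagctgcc
Ngp: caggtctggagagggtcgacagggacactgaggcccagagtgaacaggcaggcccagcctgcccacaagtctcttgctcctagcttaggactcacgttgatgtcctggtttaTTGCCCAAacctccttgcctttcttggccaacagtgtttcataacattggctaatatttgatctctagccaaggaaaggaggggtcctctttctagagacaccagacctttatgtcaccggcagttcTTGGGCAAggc
Ltf: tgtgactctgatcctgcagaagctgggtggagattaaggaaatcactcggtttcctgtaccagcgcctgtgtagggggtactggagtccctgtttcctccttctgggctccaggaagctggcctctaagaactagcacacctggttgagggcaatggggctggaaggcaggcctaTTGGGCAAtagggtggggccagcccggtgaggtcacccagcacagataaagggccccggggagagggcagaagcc
Camp: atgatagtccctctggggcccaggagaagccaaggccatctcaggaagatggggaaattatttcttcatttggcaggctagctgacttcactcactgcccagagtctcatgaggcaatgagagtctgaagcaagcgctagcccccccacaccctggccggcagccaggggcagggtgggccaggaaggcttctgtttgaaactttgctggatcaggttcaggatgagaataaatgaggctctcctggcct
Elane: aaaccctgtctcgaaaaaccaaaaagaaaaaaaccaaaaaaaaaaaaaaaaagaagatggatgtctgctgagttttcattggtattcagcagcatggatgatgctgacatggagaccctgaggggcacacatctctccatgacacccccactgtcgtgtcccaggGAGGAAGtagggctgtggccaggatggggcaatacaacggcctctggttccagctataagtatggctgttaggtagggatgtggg
These windows lie at chr3:90668821-90669070 (plus strand) for S100a8, chr3:90695722-90695971 (minus) for S100a9, chr9:110419558-110419807 (plus) for Ngp, chr9:111019042-111019291 (plus) for Ltf, chr9:109849457-109849706 (minus) for Camp and chr10:79886062-79886311 (plus) for Elane.

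The 3 motifs do not overlap in these sequences. Ngp holds 2 C/EBP matches, at 138 to 131 and 11 to 4 bases before the start. Ltf holds 1, at 75 to 68 bases, and S100a9 holds 1, at 236 to 229 bases. S100a8 has no C/EBP match and is the single member with the exact letters TATAAA, 30 to 25 bases before the start, besides a PU.1 match at 171 to 165 bases. Other forms of a TATA box were not searched. In the promoter of Camp none of the 3 motifs was found. Elane has a PU.1 match at 85 to 79 bases. Over all 10 members, a C/EBP match was present in 5 (Lcn2, Ltf, Ngp, Retnlg and S100a9) against 9.56% of 32851 promoters of the same length. A PU.1 match was present in 5 (Elane, Lcn2, Mpo, Prtn3 and S100a8) against 10.6% of promoters, and the letters TATAAA in 1 against 12.4%. All 3 primary granule genes, Mpo, Elane and Prtn3, carried the PU.1 letters and none of them the C/EBP letters. Among the 5 genes that fell, 3 carried the C/EBP letters and 1 the PU.1 letters. A match describes the letters and says nothing of binding.

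After LPS, both alarmin genes and 3 of the 4 secondary granule genes were lower in the average over both genotypes; in wildtype cells alone, Camp was the single member to pass the test. Averaged over wildtype and knockout cells, S100a8 was 3.22-fold lower, S100a9 2.55-fold, Ngp 3.54-fold, Ltf 3.09-fold and Camp 2.65-fold. The secondary granule gene Lcn2, the primary granule genes Mpo, Elane and Prtn3, and Retnlg did not pass the test. No member passed the test between Arc knockout and wildtype cells. Of the 10 members, 5 were lower in the LPS average at an adjusted p under 0.05 (limma), while 2.28% of all genes (506) were. The median log2 difference of the 10 was -1.03, and that of all genes was -0.012. Because the members were chosen with earlier results of these data known, these comparisons with all genes are descriptive.

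**Figure D1:**
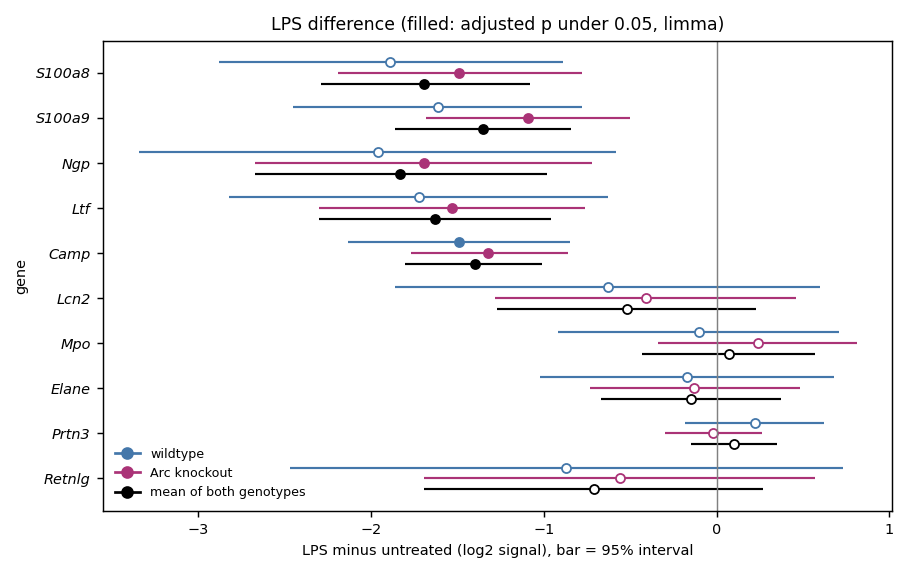
Log2 difference of LPS-treated from untreated cells for each of the 10 genes, in wildtype cells, in knockout cells and averaged over both, with 95% confidence intervals from limma. The intervals of S100a8, S100a9, Ngp, Ltf and Camp lie below 0 for the average, and those of Lcn2, Mpo, Elane, Prtn3 and Retnlg span 0.

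S100a8 encodes the smaller calprotectin subunit. Its log2 signal on replicates 1, 2 and 3 was 11.12, 11.07 and 11.14 in untreated wildtype cells and 9.47, 8.66 and 9.54 after LPS. In knockout cells it was 11.21, 10.87 and 10.56 untreated and 10.12, 8.99 and 9.07 after LPS. Every LPS array lay below every untreated array in both genotypes; the nearest arrays were knockout LPS replicate 1 at 10.12 and knockout untreated replicate 3 at 10.56. The difference averaged over genotypes was -1.69 (SE 0.275, adjusted p = 0.00382). In knockout cells alone it was -1.49 (SE 0.318, adjusted p = 0.021), and in wildtype cells alone -1.89 (SE 0.45, adjusted p = 0.0759). Since the untreated wildtype arrays count as 1 sample, the wildtype contrast has the wider error although its difference is the larger. As a term in the fit, low small RNA signal brought the average over genotypes to -1.2 (adjusted p = 0.0371).

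S100a9, the partner subunit, is the gene next to S100a8 on the chromosome and followed it closely. Untreated wildtype arrays read 10.98, 10.94 and 10.96, and LPS arrays 9.16, 9.04 and 9.84. Untreated knockout arrays read 11.05, 10.46 and 10.32, and LPS arrays 9.93, 9.11 and 9.51. The groups again did not overlap. Averaged over genotypes, its difference was -1.35 (SE 0.231, adjusted p = 0.00488), made up of -1.61 in wildtype cells (adjusted p = 0.0694) and -1.09 in knockout cells (adjusted p = 0.0378). When low small RNA signal entered the fit as a term, the average was -1.24 and its adjusted p 0.0501.

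**Figure D2:**
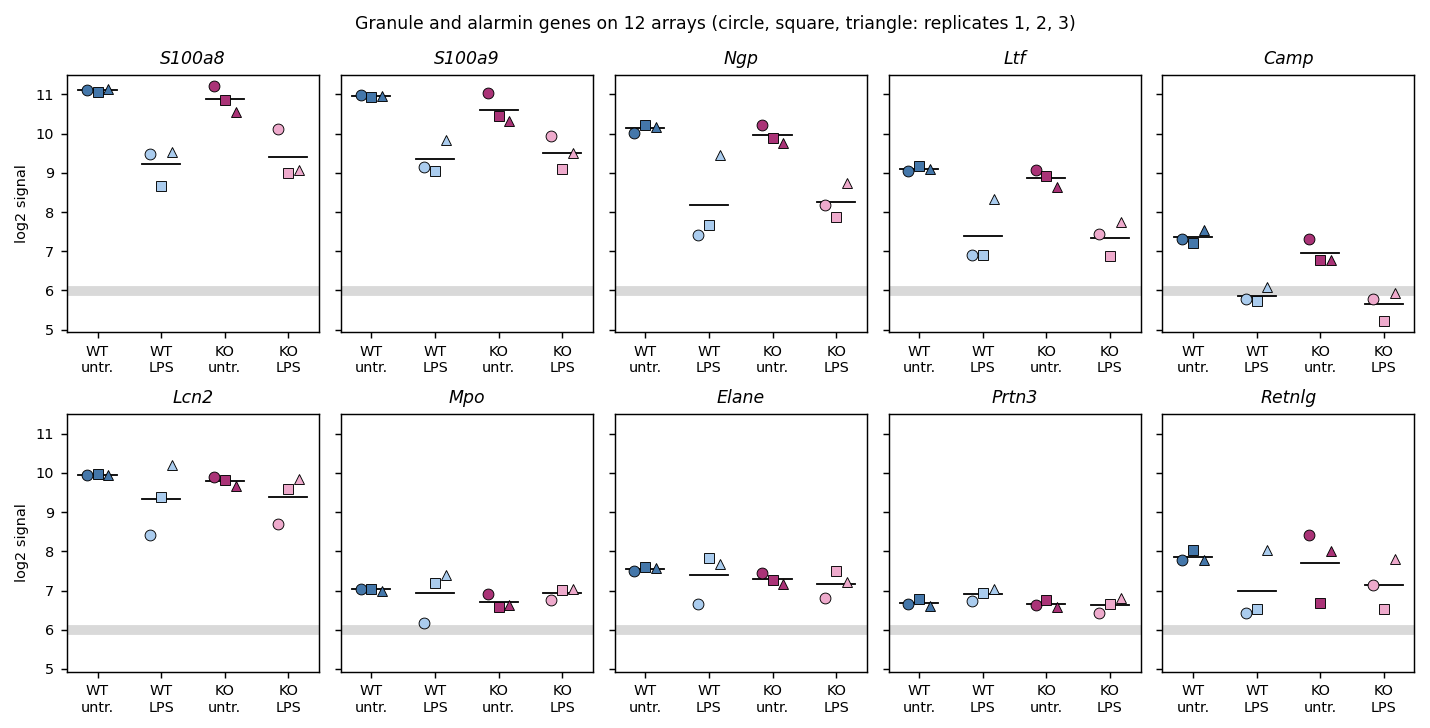
Log2 signal of each of the 10 genes on every array, by group (wildtype and knockout, untreated and LPS); points are arrays (a symbol for each replicate number), black lines are group means, and the grey band spans 5.89 to 6.1, the range over arrays of the median signal of probe sets without a gene. For S100a8, S100a9, Ngp, Ltf and Camp the LPS arrays sit below the untreated arrays, and for the other 5 genes the groups overlap.

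Ngp encodes neutrophilic granule protein, a relative of the cathelicidins stored in secondary granules. It had the largest average difference of the 10 members, and in wildtype LPS cells the largest SD (1.12). Untreated wildtype arrays read 10.02, 10.21 and 10.18, and the LPS arrays 7.41, 7.68 and 9.46. Untreated knockout arrays read 10.23, 9.89 and 9.76, and the LPS arrays 8.17, 7.88 and 8.75. The third wildtype LPS array stood well above the other two, yet below every untreated array. Its average difference was -1.83 (SE 0.382, adjusted p = 0.0158). It was -1.96 in wildtype cells (adjusted p = 0.22) and -1.69 in knockout cells (adjusted p = 0.0497). Without the 3 arrays with Y-linked signal, a choice made after seeing the data, the average was -1.55 with an adjusted p of 0.0631.

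Ltf encodes lactoferrin, the iron-binding protein of secondary granules, and showed the same order of arrays. Untreated wildtype arrays read 9.05, 9.18 and 9.10, and the LPS arrays 6.90, 6.91 and 8.34. Untreated knockout arrays read 9.07, 8.93 and 8.64, and the LPS arrays 7.43, 6.88 and 7.74. As for Ngp, wildtype LPS replicate 3 was the highest LPS array, and no LPS array reached an untreated one. For Ltf the average difference was -1.63 (SE 0.304, adjusted p = 0.00841), with -1.72 in wildtype cells (adjusted p = 0.161) and -1.53 in knockout cells (adjusted p = 0.0283).

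Camp encodes the precursor of the mouse cathelicidin peptide. It had the smallest SE of the 5 genes called and was the single member to pass the test in each genotype alone. Untreated wildtype arrays read 7.32, 7.22 and 7.54, and the LPS arrays 5.77, 5.73 and 6.10. Untreated knockout arrays read 7.32, 6.77 and 6.79, and the LPS arrays 5.78, 5.23 and 5.93. After LPS the signal was near that of probe sets without a gene: it exceeded their median on 1 of 3 wildtype arrays and on 0 of 3 knockout arrays, by -0.66 to 0.1. The fold is thus a ratio of signals, with the lower one at background. The differences were -1.49 in wildtype cells (SE 0.291, adjusted p = 0.0338), -1.32 in knockout cells (SE 0.206, adjusted p = 0.00396) and -1.4 on average (SE 0.178, adjusted p = 8.18e-04).

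Lcn2 encodes lipocalin 2, which binds bacterial siderophores and is stored in secondary granules, but is also an inducible gene of many cell types. Its untreated arrays were close together, at 9.95, 9.97 and 9.96 in wildtype and 9.90, 9.81 and 9.66 in knockout cells. After LPS they spread over 8.41, 9.39 and 10.20 in wildtype and 8.71, 9.58 and 9.85 in knockout cells. Replicate 1 was the low array in both genotypes, 1 wildtype LPS array exceeded every untreated array, and the groups overlapped. The average difference was -0.52, with a 95% interval of -1.27 to 0.23 and an adjusted p of 0.518. Relative to the untreated mean of its genotype, replicate 1 was at -1.56 in wildtype and -1.08 in knockout cells, and the other 4 LPS arrays were between -0.57 and 0.24. Those 4 are the arrays of low small RNA signal. Without them the average difference of Lcn2 was -1.32 (adjusted p = 0.00647), where each LPS group has 1 array, assumed to vary like the untreated knockout arrays. A term for them gives the same -1.32 by design, since replicate 1 alone then sets the average, and is no second result (adjusted p = 0.00754).

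**Figure D3:**
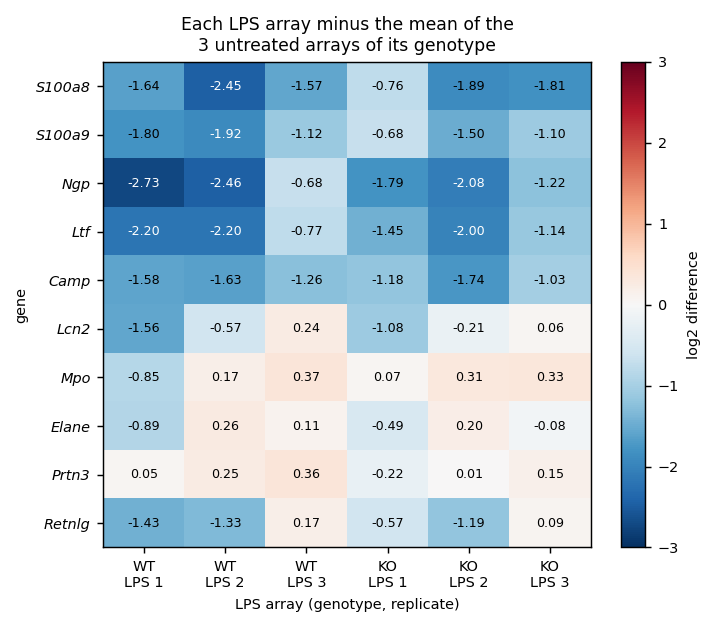
Each LPS array's log2 signal minus the mean of the untreated arrays of its genotype, for the 10 genes; the colour and the printed number give the log2 difference, with genes down the side and the 6 LPS arrays across. For S100a8, S100a9, Ngp, Ltf and Camp all 6 LPS arrays lie below 0, whereas Lcn2 ranges from -1.56 to 0.24.

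Of the primary granule genes, Mpo encodes myeloperoxidase, which makes hypochlorous acid. It read 7.04, 7.05 and 7.0 on untreated wildtype arrays and 6.18, 7.20 and 7.40 on LPS arrays. In knockout cells it read 6.91, 6.58 and 6.64 untreated and 6.77, 7.02 and 7.04 after LPS. Wildtype LPS replicate 1 was the lowest array of all and the other LPS arrays were level with untreated ones or above them. The average difference was 0.07, with an interval of -0.43 to 0.57 (adjusted p = 0.94).

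Elane, neutrophil elastase, read 7.49, 7.61 and 7.58 on untreated wildtype arrays and 6.67, 7.82 and 7.67 on LPS arrays. In knockout cells it read 7.44, 7.28 and 7.18 untreated and 6.81, 7.50 and 7.22 after LPS. Replicate 1 was again the low LPS array in both genotypes. The average difference was -0.15, with an interval of -0.67 to 0.37 (adjusted p = 0.847). With low small RNA signal as a term in the fit, it was -0.69 (adjusted p = 0.0348). Leaving those arrays out gives the same -0.69 by design, with 1 array in each LPS group.

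Prtn3, proteinase 3, is the gene next to Elane and had the smallest LPS difference in knockout cells. It read 6.66, 6.79 and 6.60 on untreated wildtype arrays and 6.73, 6.94 and 7.05 on LPS arrays, and 6.63, 6.77 and 6.58 then 6.44, 6.67 and 6.81 in knockout cells. Its average difference was 0.1, with an interval of -0.15 to 0.35 (adjusted p = 0.755). The whole interval lies above the average differences of the 5 genes called lower.

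Retnlg encodes resistin-like gamma, a secreted protein of myeloid cells. Untreated wildtype arrays read 7.79, 8.03 and 7.77, and LPS arrays 6.43, 6.53 and 8.03. Untreated knockout arrays read 8.43, 6.68 and 8.02, and LPS arrays 7.14, 6.52 and 7.80. Low readings occurred with and without LPS: untreated knockout replicate 2, knockout LPS replicate 2 and wildtype LPS replicates 1 and 2 were between 6.43 and 6.68, and 3 of these 4 are the arrays with Y-linked signal. The average difference was -0.71, with an interval of -1.69 to 0.27 (adjusted p = 0.482). Without the arrays with Y-linked signal it was -0.67 (adjusted p = 0.331).

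In an exact permutation test of the LPS average, which reassigned treatment within genotype over the 10 samples, S100a8, S100a9, Ngp, Ltf and Camp each had a two-sided p of 0.0125, the smallest that 80 regroupings allow. Benjamini-Hochberg adjustment over the 10 members made it 0.025 for each. When treatment was swapped only within same-numbered knockout pairs, a choice added after seeing the data, each of the 5 had an exact p of 0.03125, the smallest that 32 regroupings allow. The p of these swaps was not adjusted over the members. In the test with 80 regroupings, the unadjusted p of the others was 0.375 for Lcn2, 0.85 for Mpo, 0.6875 for Elane, 0.4625 for Prtn3 and 0.275 for Retnlg. A lack of overlap between LPS and untreated arrays in both genotypes, found for those same 5 members, occurred in 4.86% of all genes (1078).

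Taken genotype by genotype, all 5 of these genes were called lower in knockout cells, where 2.93% of all genes (650) were. In wildtype cells Camp was called and 0.234% of all genes (52) were. These single-genotype counts depend on individual arrays. The knockout count was 1 without knockout untreated replicate 1, untreated replicate 2 or LPS replicate 2, was 2 without untreated replicate 3 or LPS replicate 3, and was 3 without LPS replicate 1. The wildtype count was 0 without wildtype LPS replicate 1, wildtype LPS replicate 2 or knockout untreated replicate 3, was 2 without knockout LPS replicate 2, and was 3 without wildtype LPS replicate 3 or knockout LPS replicate 1. Counted as 12 separate samples, the arrays gave 5 called members in wildtype cells. The average over genotypes kept a count of 5 whichever single array was left out. Whether the LPS difference itself differed between genotypes was tested directly.

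That test, the interaction of genotype and LPS, called 0 of the 10 members and 0% of all genes (limma; 982 genes, none of them a member, had an unadjusted p under 0.05). Over all genes this count was 35 without knockout LPS replicate 2, 1 without knockout untreated replicate 1 and 6 without the arrays with Y-linked signal, and the members' count was 0 each time. The member interactions ranged from -0.24 to 0.52 on the log2 scale, with adjusted p from 0.948 to 0.991. For S100a9, the largest, the interval was -0.5 to 1.54, and for Ngp it was -1.42 to 1.95. Genotype effects on the LPS difference inside these intervals were not excluded with this number of arrays.

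In untreated cells, the knockout-minus-wildtype difference was below 0 for all 10 members, from -0.39 (Camp) to -0.03 (Prtn3), and 0 of 10 passed the test (adjusted p 0.97 to 0.986), with 0 at an unadjusted p under 0.05. Of all genes, 0.00451% were called in that comparison, and the median difference over all genes was 0.024. The share of all genes below 0 was not counted. All 10 differences rest on the same arrays, with untreated wildtype as 1 sample, so the like signs are not separate results. After LPS, 4 of the 10 lay below 0, the differences ranged from -0.27 (Prtn3) to 0.17 (S100a8 and S100a9), and again 0 of 10 passed (adjusted p 0.999; 0 at an unadjusted p under 0.05), with 0.00902% of all genes called. The interval for S100a8 was -1.22 to 0.76 untreated and -0.53 to 0.87 after LPS.

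Replicate spread differed strongly between groups. The median SD of the 10 members was 0.0637 in untreated wildtype cells, 0.641 in wildtype LPS, 0.232 in knockout untreated and 0.422 in knockout LPS cells. For all genes the medians were 0.101, 0.139, 0.129 and 0.17. The members therefore varied more than the typical gene in 3 of the 4 groups and less in the untreated wildtype group. Ngp was the most variable in wildtype LPS cells, and Retnlg in both knockout groups (SD 0.912 untreated and 0.639 after LPS).

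Other genes of the granulocyte programme were read from 3 lists of 55 genes, of which 51 were measured; all 10 lists together hold 158 genes, 144 of them measured. Among secondary and tertiary granule genes outside the members, 6 of 19 were lower after LPS in the genotype average and 0 higher (median -0.34). They were Chil3 (chitinase-like 3, -1.42), Mmp8 (neutrophil collagenase, -0.99), Olfm4 (olfactomedin 4, -0.97), Ceacam10 (-0.93), Lyz1 (lysozyme 1, -0.76) and Cd177 (a neutrophil surface protein, -0.63). Among primary granule and promyelocyte genes, 1 of 16 was lower, Lyz2 (lysozyme 2, -0.75, SE 0.126), and 0 were higher (median -0.2). Srgn, the granule proteoglycan core serglycin, read 0.3 (adjusted p = 0.0538), and Fcnb, a ficolin, read -0.34 (adjusted p = 0.0819). The 2 granule classes thus gave 6 of 19 and 1 of 16 calls, beside 2.28% of all genes; whether they differ was not tested.

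Mature neutrophil genes had 3 of 16 measured members lower and 0 higher (median -0.31): Stfa3, a stefin A protease inhibitor (-1.77), Cxcr2, the receptor that guides neutrophils to CXC chemokines (-0.8), and Wfdc21 (-0.79). Of all genes, 2.28% were called lower. Stfa3 had an adjusted p of 0.108 with low small RNA signal as a term in the fit and of 0.0618 without the arrays with Y-linked signal. The defining surface marker Ly6g read 7.34 to 7.64 in untreated and 6.15 to 6.85 in LPS-treated wildtype cells, and 7.13 to 7.48 and 5.58 to 6.8 in knockout cells (-0.94, adjusted p = 0.0522). The list averaged 7.75 to 7.86 per array in untreated wildtype, 7.11 to 7.7 in wildtype LPS, 7.55 to 7.76 in knockout untreated and 7.19 to 7.52 in knockout LPS cells. The list's median difference was -0.4 in each genotype, and its part in the members' difference was not tested. In bulk RNA from a mixed culture, fewer cells of a type and less RNA per cell cannot be told apart.

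**Figure D4:**
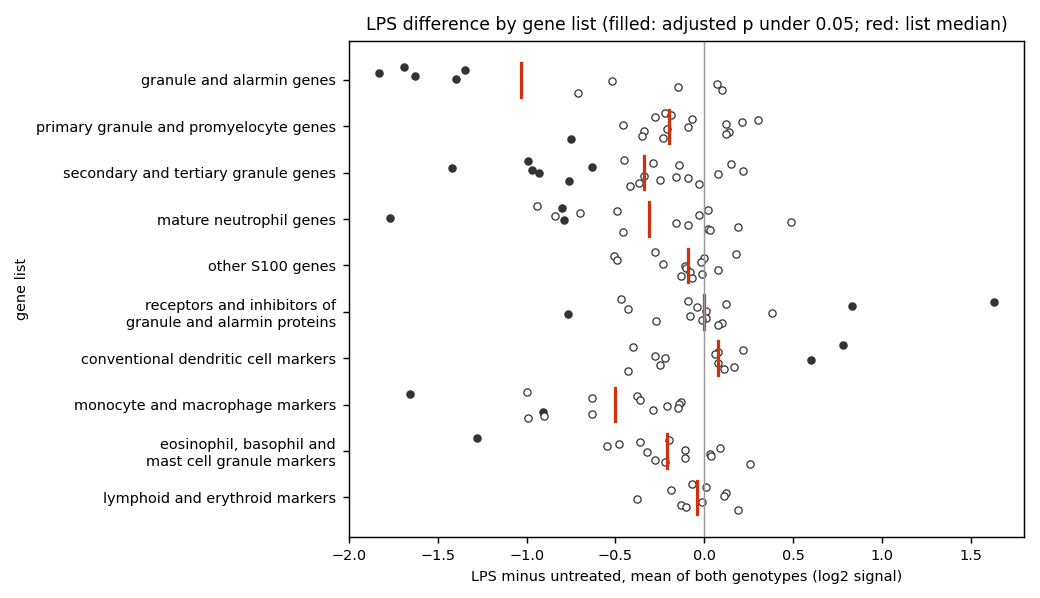
Log2 difference of LPS-treated from untreated cells, averaged over both genotypes, for every measured gene of the members and of the lists other than the LPS check genes; each point is 1 gene, filled where it passed the test, and the red line marks the list's median. The members' median is -1.03, the secondary and tertiary granule list's is -0.34, the monocyte and macrophage list's is -0.5 and the dendritic cell list's is 0.08.

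Monocyte and macrophage markers had 2 of 14 lower and 0 higher (median -0.5): Ccr2, the receptor for monocyte chemoattractants, at -1.66 and Ms4a6c at -0.91. For this list and the next, the share of all genes called lower was 2.28%. F13a1, a coagulation factor subunit made by monocytes, read -0.9 (adjusted p = 0.0598). It passed without wildtype LPS replicate 3 (-1.04, adjusted p = 0.0246) or knockout untreated replicate 2 (-1.02, adjusted p = 0.0312), and with low small RNA signal as a term (-1.35, adjusted p = 0.0107). Their list mean per array was 9.79 to 9.87 untreated and 9.1 to 9.34 after LPS in wildtype cells, and 9.63 to 9.83 and 8.71 to 9.46 in knockout cells. Eosinophil, basophil and mast cell markers had 1 of 14 lower, Prg2 (eosinophil major basic protein, -1.28), with a median of -0.21. Ear6, an eosinophil ribonuclease, read -0.48 (adjusted p = 0.126) and Epx, eosinophil peroxidase, -0.36 (adjusted p = 0.142). For dendritic cell markers, 2 of 13 were higher, Zbtb46 (0.78) and Irf4 (0.6), both transcription factors of that lineage, and 0 were lower (median 0.08), where 3.94% of all genes (874) were called higher. Dpp4, a peptidase, read -0.25 (adjusted p = 0.256). Without the arrays of low small RNA signal, Irf4 read 0.51 with an adjusted p of 0.0947. Lymphoid and erythroid markers had 0 of 10 called by limma (median -0.04); the smallest p were those of Klf1 (0.19), Cd8a (-0.38) and Cd3e (0.12), each with an unadjusted p above 0.05. Klf1 (5.86 to 6.3) and Cd3e (5.5 to 6.18) were near the signal of probe sets without a gene.

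Of 14 other S100 genes, which share the calcium-binding fold of S100a8 and S100a9, 0 were called after LPS (median -0.09, limma). An unadjusted p under 0.05 was found for 3 of them, and for 3900 of all 22180 genes. The 3 with the smallest p were S100a6 (-0.49, adjusted p = 0.0785), S100a4 (-0.51, adjusted p = 0.106) and S100a10 (-0.23, adjusted p = 0.217). With low small RNA signal as a term, S100a6 read -0.22 (adjusted p = 0.471) and S100a4 -0.16 (adjusted p = 0.598). Single arrays moved both the other way: without wildtype LPS replicate 1 the adjusted p was 0.0301 and 0.0316, and without knockout LPS replicate 1 it was 0.0454 and 0.0402.

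Receptors and inhibitors of the granule and alarmin proteins, read against the same 3.94% and 2.28% of all genes, had 2 of 16 higher and 1 lower (median 0). Cd14, the LPS co-receptor, rose by 1.63 and Cd36, a scavenger receptor, by 0.83. Serpinb1a, an inhibitor of neutrophil elastase and proteinase 3, was at -0.77. With low small RNA signal as a term, Serpinb1a read -0.48 (adjusted p = 0.233) and Cd36 0.6 (adjusted p = 0.224). Leaving those arrays out gives the same averages by design. Both calls also depended on single arrays. Serpinb1a had an adjusted p of 0.0511, 0.0513, 0.0591, 0.0631 and 0.0672 without knockout untreated replicates 1 and 2, knockout LPS replicate 3 and wildtype LPS replicates 2 and 3. Cd36 had 0.0537, 0.0548 and 0.0585 without knockout untreated replicates 1 and 3 and knockout LPS replicate 3.

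The nearest genes on either side of each member were a set added after the members' values were seen. Of 16 neighbours that are not members, 2 were lower and 2 higher in the LPS average (median 0.07), where 2.28% of all genes were lower and 3.94% higher. S100a7a (-0.02) and Pglyrp4 (0.13), on either side of the S100a8 and S100a9 pair, were not called. Ltf lies beside Ccrl2, a chemokine-binding receptor that rose by 2.68 (SE 0.135, adjusted p = 1.69e-06) while Ltf fell. Ngp lies between Ptpn23, which rose by 0.72, and Klhl18, which fell by 0.42. Beside Retnlg, Dzip3 fell by 0.91 (adjusted p = 2.10e-04) and Retnla, a resistin-like relative, read -0.14. The neighbours of Camp, Nme6 (0.07) and Cdc25a (0.02), were not called.

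The genes whose signal over the 12 arrays was most like that of Ngp, among 16151 compared, were Gm9733 (Pearson r = 0.975), Cxcr2 (0.968), Zc3h12d (0.946), Cd177 (0.946) and Ifitm6 (0.94). For S100a8 they were Exo5 (0.957), Zfp960 (0.954), Mospd1 (0.953), Stfa3 (0.951) and Prg2 (0.95). These correlations describe arrays that share 2 treatments and carry no test. The group around Ngp includes 2 neutrophil genes of the lists, Cxcr2 and Cd177, and that around S100a8 includes Stfa3 from the neutrophil and Prg2 from the eosinophil list. Their LPS differences follow from how they were chosen and are not counted.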

How the data were processed

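Per the labels' protocols, total RNA was labelled with Affymetrix's WT PLUS kit; there were 12 arrays. The authors deposited 1 normalized log2 signal per probe set and array; no source used here states the background correction or normalization. limma is the single tool in the submitters' processing notes, without a version. Array medians were 6.5 to 6.67.

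Of 34390 probe sets, 23521 have 1 gene in the platform annotation, 1814 several and 9055 none. The probe set with the highest mean stood for each gene, giving 22180 genes; 21994 are in a reference table of GRCm38.p6, used for names and neighbours. No source used here names the array's own genome build. Promoters are RefSeq's, and all 10 members matched.

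The test was limma 3.58.1 in R 4.3.3, tested on simulated data: lmFit with 1 mean per group, 6 contrasts, eBayes, two-sided, and Benjamini-Hochberg adjustment over all genes, with a threshold of 0.05. The mean of the untreated wildtype arrays was 1 of 10 samples (6 residual degrees of freedom) and is assumed to vary like the other groups. Folds are 2 to the power of the log2 difference. A single array per sample means that the number of arrays limits the precision.

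Named genes were the members, the 3 genes of each list with the smallest p in the LPS average, and the 5 genes most correlated with S100a8 and with Ngp; Mmp8, Ceacam10, Cd177, Ly6g and the neighbours were named after their values were seen. Members, lists and the counting of untreated wildtype arrays were chosen with earlier results of these data known. Residuals of same-numbered samples correlated at 0.196 to 0.381 between knockout untreated and knockout LPS cells and at 0.228 to 0.358 between the LPS groups. Between knockout untreated and wildtype LPS cells they correlated at 0.145 to 0.196, and against untreated wildtype at -0.053 to 0.113. Differently numbered samples were not compared. In both LPS groups, replicates 2 and 3 are also the arrays of low small RNA signal. Whether replicate numbers pair the groups was thus not tested. By mean Y-linked signal, replicate 1 did not match between the wildtype groups (4.11 untreated, 8.83 after LPS). Replicate 2 matched between the knockout groups (9.24 untreated, 9.21 after LPS). The wildtype LPS contrast therefore includes 1 array with Y-linked signal, on the LPS side only.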

Additional observations from a re-analysis of the deposited data

How the results depend on the processing

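Over both genotypes the count of members called lower after LPS was 5, and 4 to 7 under 22 other settings. In wildtype cells the count of 1 became 5 with 12 arrays as 12 samples, 0 with low small RNA signal as a term in the fit, 3 without those arrays, and 0 to 3 leaving out single arrays. In knockout cells the count of 5 became 3 with quantile normalization again, 3 without the arrays of low small RNA signal, 1 without the arrays with Y-linked signal (chosen after seeing the data), and 1 to 5 leaving out single arrays. With the replicate block, the count was 5 in wildtype cells and 5 on average on 12 arrays, and 5 in knockout cells on 12 arrays or on the 9 without untreated wildtype. The wildtype count was already 5 with 12 samples and no block, so the replicate block by itself changed no member's call in the limma fits or, as swaps within pairs, in the exact permutation test. Genotype and interaction counts were 0 in every setting run.

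Signs turned for differences that were not called. For LPS in wildtype cells, Mpo became 0.03 with a term for Y-linked signal and 0.27 without those arrays (leaving out single arrays, -0.34 to 0.27), and Elane became 0.19 without them (-0.39 to 0.19). In knockout cells, Mpo became -0.22 with the small RNA term, Prtn3 0.02 without the Y-linked arrays (-0.1 to 0.08), and Elane ranged over -0.29 to 0.06. On average, Mpo became -0.39 and Prtn3 -0.09 with the small RNA term or without those arrays, which by design give the same average. Leaving out single arrays, Mpo ranged over -0.05 to 0.25 and Elane over -0.26 to 0.03. For knockout against wildtype, untreated Ngp became 0.03 with the Y-linked term. After LPS, Ngp became -0.11 without the Y-linked arrays, and Ltf 0.53 and Camp 0.01 without the arrays of low small RNA signal. Leaving out single arrays gave -0.3 to 0.73 for Ngp, -0.28 to 0.44 for Ltf, -0.19 to 0.37 for S100a8 and -0.04 to 0.42 for S100a9. For the interaction it gave -0.12 to 0.9 for Ngp and -0.05 to 0.67 for Ltf. The cause was not tested.

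Over all genes, calls lower after LPS (52 in wildtype, 650 in knockout, 506 on average) became 722, 1149 and 1631 with 12 samples, and 1013, 1531 and 2038 with the replicate block on 12 arrays. Without the arrays of low small RNA signal they were 13, 293 and 309. Leaving out single arrays gave 26 to 105, 233 to 979 and 336 to 657. With 12 samples, 97 genes were called between untreated genotypes and 55 in the interaction (0 with 10 samples, 0 to 35 leaving out single arrays, 6 without the Y-linked arrays). The other probe sets of a member were not run, since each member has 1.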
